A study of Mus musculus with 4 samples.

Results

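The 10 genes described here encode the core of the cellular oxygen sensor and a set of its transcriptional targets outside glycolysis. They were chosen by name, as the subunits of hypoxia-inducible factor 1 (Hif1a, Arnt), the von Hippel-Lindau protein (Vhl), the prolyl hydroxylases (Egln1, Egln2, Egln3) and hypoxia targets (Bnip3, Bnip3l, Ddit4, P4ha1). All 10 were present among the 14934 genes of the count table, and all 10 passed the filter on low counts that left 11563 genes to test. The study compared CD8 T cells taken from hepatocellular carcinoma of wild-type mice by flow cytometric sorting, either with (JAML-positive) or without (JAML-negative) the surface receptor JAML, the junctional adhesion molecule-like protein. Each group had 2 libraries, replicates A and B, for which total RNA went into a SMARTER mRNA-Seq preparation. The way the tumours arose, the strain and age of the mice, and whether A and B came from separate animals, pools or sorts are not stated in the labels, so the spread between libraries may be technical.

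HIF-1 is a dimer of an alpha subunit that is destroyed when oxygen is present and a beta subunit, ARNT, that is stable. The EGLN enzymes use oxygen and 2-oxoglutarate to hydroxylate prolines of the alpha subunit, VHL recognises the hydroxylated form and directs it to the proteasome, and in hypoxia the surviving dimer binds hypoxia response elements in DNA. Because control acts mainly on the protein, transcript levels of Hif1a do not report HIF-1 activity. In T cells, HIF-1 can also accumulate after antigen receptor stimulation, and it is known for raising glycolysis in effector CD8 T cells.

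Library totals lay between 27530187 and 30569728 counts. Values are CPM, that is counts scaled to the library total, with edgeR's TMM factors applied. JAML-positive replicate A stood apart, with 11.6% of its counts in ribosomal protein genes, against 7.15% in JAML-positive replicate B and 7.87% to 7.97% in the JAML-negative libraries. Transcripts of the sort marker, Jaml, averaged 142 ± 6.53 CPM in JAML-positive and 124 ± 9.89 CPM in JAML-negative cells (SD, n = 2 each), and the difference did not pass the test (log2 fold change 0.20, SE 0.22, edgeR adjusted p = 0.989), so the group names rest on the labels. Defining CD8 T cell transcripts were abundant, with summed levels of 6 markers at 3460 to 3940 CPM in JAML-positive and 3470 to 3650 CPM in JAML-negative libraries. Markers of other cells were also counted. The summed level of 14 dendritic cell and MHC class II markers was 524 to 715 CPM in JAML-positive and 289 to 290 CPM in JAML-negative libraries, with higher values for 12 of 13 tested markers. Cd74, the MHC class II invariant chain, had 145 and 72.7 CPM in JAML-positive libraries A and B, against 27.7 and 25.1 CPM in JAML-negative libraries A and B, whereas Itgax, which encodes CD11c, averaged 68.3 CPM in JAML-positive and 120 CPM in JAML-negative cells. The summed level of 3 erythroid markers was 15.9 to 49.7 CPM in JAML-positive and 0 to 0.0363 CPM in JAML-negative libraries, where the most abundant of them, Hbb-bs, was at 0.

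Among the 10 genes, Egln3 had the highest ratio between JAML-positive and JAML-negative cells and Egln2 the lowest, while the other 8 differed by less than 1.4-fold in either direction. Egln3, the prolyl hydroxylase best known as a HIF target itself, averaged 34.7 ± 6.03 CPM in JAML-positive and 6.78 ± 5.23 CPM in JAML-negative cells. Egln2, the prolyl hydroxylase that hypoxia does not induce, averaged 16.9 ± 0.0818 CPM in JAML-positive and 35.9 ± 5.33 CPM in JAML-negative cells. Hif1a averaged 394 ± 83.4 CPM in JAML-positive and 297 ± 12.1 CPM in JAML-negative cells (SD, n = 2 each throughout). These were sorted populations measured in bulk, in which fewer cells of a type and less RNA per cell cannot be told apart.

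None of the 10 genes passed edgeR's quasi-likelihood test after Benjamini-Hochberg adjustment over all 11563 genes (adjusted p from 0.704 to 1). The share of all tested genes that passed was 0%, and 814 genes (7.04%) had an unadjusted p under 0.05, among them 1 of the 10, Egln3. DESeq2, the other count test run, called 885 genes (7.65%), among them 2 of the 10, Egln3 and Egln2, while limma-voom called 0 genes. Of the 10 genes, 4 had higher and 6 lower mean levels in JAML-positive cells, against 50.7% of all tested genes with a higher level. The median log2 fold change was -0.06 over the 10 genes and 0.01 over all tested genes. The groups were separated without overlap for 3 of the 10, with JAML-positive cells higher for 2 (Hif1a, Egln3) and lower for 1 (Egln2), against 20.3% of all tested genes separated with higher and 18.2% with lower values. Standard errors on the log2 scale had a median of 0.40 for the 10 genes and 0.54 for all tested genes, and an exact two-sided permutation test of 2 against 2 libraries cannot give a p below 0.333.

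**Figure D1:**
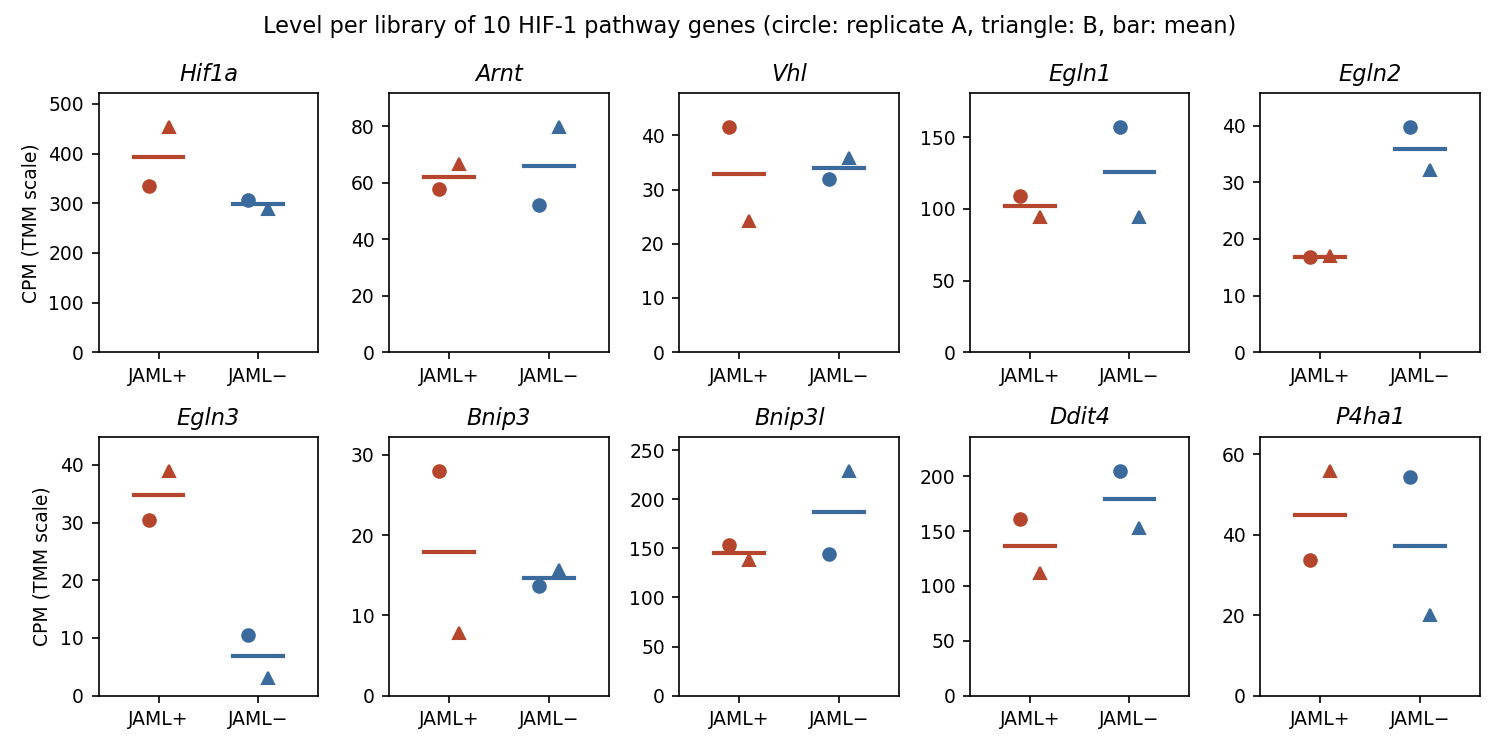
CPM of each of the 10 genes in each library, with JAML-positive libraries on the left of a panel, JAML-negative libraries on the right, circles for replicate A, triangles for replicate B and a bar at the group mean (linear axes from 0, a separate scale per gene). The groups are separated for Hif1a, Egln2 and Egln3 and overlap for the other 7 genes.

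**Figure D2:**
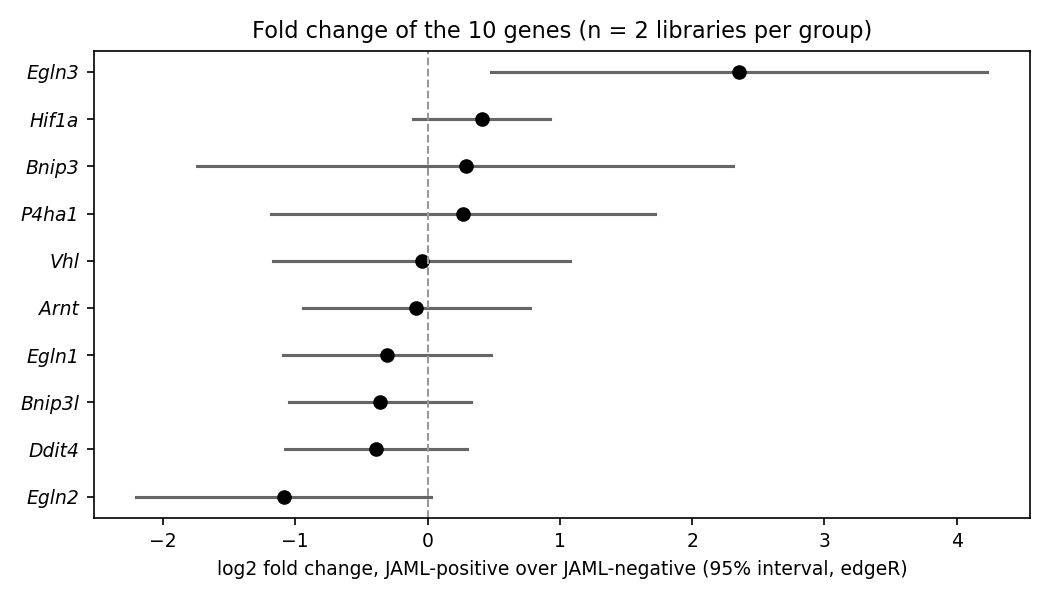
Log2 fold change of JAML-positive over JAML-negative cells for each gene (point) with its 95% interval from edgeR (line), 2 libraries per group. The interval of Egln3 runs from 0.48 to 4.23 and that of Egln2 from -2.20 to 0.02, before any adjustment for the number of genes tested.

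To set levels of different genes beside each other, CPM were divided by the kilobases of annotated exon. Averaged over the 4 libraries, Ddit4 was the most abundant of the 10 at 89.9 CPM per kilobase, followed by Hif1a at 58.6, Bnip3l at 42.9 and Egln1 at 31.6 CPM per kilobase. A gap then separated these 4 genes from the other 6, which lay between 7.19 (Bnip3) and 11.1 CPM per kilobase (Vhl). The lowest library of Egln1, at 26.3 CPM per kilobase, was above the highest library of Vhl, at 13.8 CPM per kilobase. All other neighbours in this order overlapped in their ranges over libraries, so the order of neighbours within the upper 4 genes and within the lower 6 was not resolved.

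Hif1a (chromosome 12, 73901324 to 73947554, GRCm38.p6, plus strand) encodes the oxygen-regulated alpha subunit. It had 335 and 453 CPM in JAML-positive libraries A and B, against 306 and 289 CPM in JAML-negative libraries A and B. The groups did not overlap, but JAML-positive replicate A was nearer to the JAML-negative libraries than to JAML-positive replicate B. On the log2 scale the difference was 0.41 (SE 0.21, edgeR adjusted p = 0.774), with a 95% interval from 0.925-fold to 1.90-fold. It was 0.17 without JAML-positive replicate B. Exons of an antisense transcript, Gm15283, cover 5.6% of the exonic bases of Hif1a, and those of Gm49321 on the same strand cover 2.51%.

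Arnt (chromosome 3, 95434367 to 95497240, plus strand) encodes the constitutive beta subunit. Its level was 57.7 and 66.5 CPM in JAML-positive libraries A and B, against 52.1 and 79.7 CPM in JAML-negative libraries A and B, so the JAML-positive values lay inside the JAML-negative range. The log2 fold change was -0.08 (SE 0.35). Per length, Hif1a exceeded Arnt in every library, by 7.90 and 9.25 times in JAML-positive libraries A and B and by 7.97 and 4.92 times in JAML-negative libraries A and B. Vhl (chromosome 6, 113623994 to 113631634, plus strand) encodes the substrate receptor of the ubiquitin ligase. It had 41.5 and 24.2 CPM in JAML-positive libraries A and B, against 31.9 and 35.9 CPM in JAML-negative libraries A and B. Its JAML-positive libraries lay on either side of the JAML-negative ones, with a log2 fold change of -0.04 (SE 0.46). The upper end of the 95% interval was 1.71-fold for Arnt and 2.12-fold for Vhl, so differences of that size were not resolved.

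The 3 prolyl hydroxylases are paralogs with different regulation. EGLN1 (PHD2) is the main enzyme that sets HIF-1 alpha levels in normal oxygen, EGLN2 (PHD1) is not induced by hypoxia, and EGLN3 (PHD3) is strongly induced by HIF and provides feedback. Their promoter windows, from 250 bases before to 50 bases after the start site, are printed because the paralogs had different ratios between the groups and differ in the sequence around the start (RefSeq, GRCm38.p6; all 3 on the minus strand of the genome, written 5′ to 3′ along the gene). Capitals mark the core letters of the hypoxia response element, ACGTG or GCGTG on either strand. The windows are chr12:54203825-54204124 for Egln3, chr7:27166753-27167052 for Egln2 and chr8:124949205-124949504 for Egln1.
Egln3: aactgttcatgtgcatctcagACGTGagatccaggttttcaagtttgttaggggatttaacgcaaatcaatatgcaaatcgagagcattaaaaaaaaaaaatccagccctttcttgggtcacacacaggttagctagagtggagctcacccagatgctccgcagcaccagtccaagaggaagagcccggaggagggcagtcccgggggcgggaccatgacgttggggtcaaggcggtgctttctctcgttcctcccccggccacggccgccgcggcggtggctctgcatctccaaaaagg
Egln2: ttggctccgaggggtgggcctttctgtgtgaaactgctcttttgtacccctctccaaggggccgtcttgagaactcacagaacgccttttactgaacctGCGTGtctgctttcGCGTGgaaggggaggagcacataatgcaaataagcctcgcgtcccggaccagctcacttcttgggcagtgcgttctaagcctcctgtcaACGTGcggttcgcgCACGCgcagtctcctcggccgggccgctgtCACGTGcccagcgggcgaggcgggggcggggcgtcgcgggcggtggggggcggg
Egln1: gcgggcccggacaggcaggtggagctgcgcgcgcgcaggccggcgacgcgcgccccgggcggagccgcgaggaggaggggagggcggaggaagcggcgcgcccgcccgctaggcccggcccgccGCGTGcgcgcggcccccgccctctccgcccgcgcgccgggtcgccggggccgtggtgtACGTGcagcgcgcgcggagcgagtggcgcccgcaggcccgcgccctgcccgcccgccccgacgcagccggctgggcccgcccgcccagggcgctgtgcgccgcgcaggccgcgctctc
The window of Egln3 held 1 core match at 54.7% GC, that of Egln2 held 6 at 64.3% GC (a second RefSeq window of Egln2, at a start inside the gene, chr7:27165679-27165978, held 1 at 49.3% GC) and that of Egln1 held 2 at 86.0% GC. A palindromic CACGTG counts as a match on each strand, as it does in Egln2. Of 32851 RefSeq promoter windows of this length, 43.8% held at least 1 ACGTG or GCGTG, so a match describes the sequence and does not show binding.

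Egln3 (chromosome 12, 54178981 to 54203874) had 806 and 1220 counts in JAML-positive libraries A and B, against 296 and 85 counts in JAML-negative libraries A and B. On the CPM scale these were 30.5 and 39.0 in JAML-positive and 10.5 and 3.09 in JAML-negative cells. The lowest JAML-positive library thus lay above the highest JAML-negative library, and the JAML-negative pair was itself uneven. The JAML-negative replicates differed by 3.39-fold, with exact Poisson 95% intervals of 263.2 to 331.7 counts for replicate A and 67.9 to 105.1 counts for replicate B. These intervals treat each read as an independent molecule. No molecular identifiers are described, so they may be too narrow and do not show that the difference exceeds sampling of molecules. The log2 fold change was 2.36 (SE 0.76), or 5.12-fold with a 95% interval from 1.40-fold to 18.8-fold, and the edgeR adjusted p was 0.704. By p, Egln3 ranked 214th of the 11563 genes. The fold change depended on the JAML-negative libraries, with a log2 value of 3.49 when JAML-negative replicate A was left out and 1.74 when JAML-negative replicate B was. With DESeq2 the gene was called (log2 fold change 2.34, adjusted p = 0.0137), and over all settings tried its adjusted p ran from 0.0137 to 0.933. Dendritic cell, MHC class II and erythroid markers were higher in the same libraries (12 of 13 and 2 of 2 tested markers with higher values). Summed levels were also higher without overlap for CD4 and regulatory T cell markers (646 and 757 CPM in JAML-positive, against 548 and 488 CPM in JAML-negative libraries A and B, 5 higher and 1 lower). In this list Ctla4, the most abundant, averaged 373 CPM in JAML-positive and 253 CPM in JAML-negative cells, and Ikzf2 averaged 50.2 against 93.7 CPM. Foxp3 had 10.1 and 0 CPM in JAML-positive, against 1.06 and 4.65 CPM in JAML-negative libraries A and B. The same held for the sum of monocyte and macrophage markers (445 and 423 CPM in JAML-positive, against 363 and 321 CPM in JAML-negative libraries A and B, 7 higher and 5 lower). Among them Mpeg1 averaged 104 CPM in JAML-positive and 10.7 CPM in JAML-negative cells, and Ccr2, the most abundant, 247 against 257 CPM. Csf1r averaged 9.81 CPM in JAML-positive and 9.05 CPM in JAML-negative cells. B and plasma cell markers summed to 217 and 209 CPM in JAML-positive, against 115 and 192 CPM in JAML-negative libraries A and B. Of 7 tested, 4 were higher and 3 lower. Jchain had 98.5 and 51.0 CPM in JAML-positive, against 4.57 and 0.327 CPM in JAML-negative libraries A and B. Prdm1 and Xbp1 averaged 53.8 and 53.6 CPM in JAML-positive, against 75.6 and 57.2 CPM in JAML-negative cells. Sums were lower for natural killer cell markers (174 and 175 CPM in JAML-positive, against 227 and 193 CPM in JAML-negative libraries A and B). They were also lower for hepatocyte and liver tumour cell markers (72.7 and 82.4 CPM in JAML-positive, against 117 and 82.8 CPM in JAML-negative libraries A and B). In each of these 2 lists, 2 tested markers were higher and 2 lower. Whether these transcripts came from other cells or from the CD8 T cells, and whether other cells had a part in the Egln3 result, was not tested.

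Egln2 (chromosome 7, 27158658 to 27166802) had 16.8 and 16.9 CPM in JAML-positive libraries A and B, against 39.7 and 32.1 CPM in JAML-negative libraries A and B. Its groups did not overlap, and within each group the replicates differed by at most 1.23-fold. On the log2 scale the difference was -1.09 (SE 0.45, edgeR adjusted p = 0.712, unadjusted p = 0.0537), with a 95% interval from 0.218-fold to 1.02-fold. DESeq2 called this gene (log2 fold change -1.10, adjusted p = 0.0298). Of the settings tried, none turned its direction, with log2 values from -1.23 to -0.93 and adjusted p from 0.0298 to 0.933. Exons of Cyp2t4 on the opposite strand overlap 0.393% of its exonic bases.

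Egln1 (chromosome 8, 124908587 to 124949254) had 109 and 94.4 CPM in JAML-positive libraries A and B, against 157 and 94.5 CPM in JAML-negative libraries A and B. JAML-negative replicate A was high and the other 3 libraries lay close together. The log2 fold change was -0.30 (SE 0.32), and it was 0.10 without JAML-negative replicate A.

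A share within the family does not depend on how libraries are scaled, and the share of counts of 1 gene can be compared between libraries. Of the counts of the 3 prolyl hydroxylase genes, Egln3 made up 19.5% (Wilson 95% interval 18.3 to 20.7) and 25.9% (24.7 to 27.2) in JAML-positive libraries A and B, against 5.06% (4.53 to 5.65) and 2.38% (1.93 to 2.93) in JAML-negative libraries A and B. Egln2 made up 10.8% (9.86 to 11.7) and 11.3% (10.4 to 12.2) in JAML-positive libraries A and B, against 19.2% (18.2 to 20.2) and 24.8% (23.4 to 26.2) in JAML-negative libraries A and B. These intervals treat each read as an independent molecule and leave out variation between replicates. As no molecular identifiers are described, they may be too narrow even for counting error. Per length, Egln1 remained the most abundant paralog in all 4 libraries, at 63.5% and 55.9% of the family in JAML-positive and 70.7% and 67.5% in JAML-negative libraries A and B. The paralog in second place was Egln3 in both JAML-positive libraries and Egln2 in both JAML-negative libraries. Whether the fold change of Egln3 differed from that of Egln2 was not tested.

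**Figure D3:**
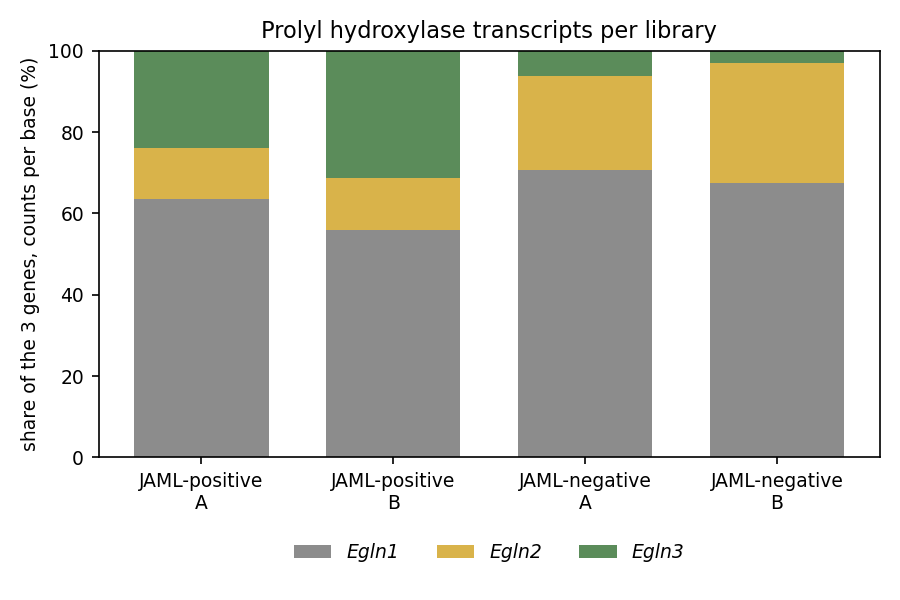
Share of each prolyl hydroxylase gene in the summed counts per exonic base of the 3 genes, as a stacked bar per library (JAML-positive libraries A and B, then JAML-negative libraries A and B). Egln3 takes 24.0% and 31.2% in the JAML-positive libraries, against 6.38% and 2.98% in the JAML-negative libraries.

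Bnip3 and Bnip3l encode related proteins of the mitochondrial outer membrane that bind LC3 family proteins and mark mitochondria for mitophagy. BNIP3 is a classic HIF-1 target, and BNIP3L (NIX) is known for the removal of mitochondria from maturing red cells. The promoter window of Bnip3 (chr7:138909457-138909756, minus strand, RefSeq GRCm38.p6) is printed as that of the target with the most core matches among the hypoxia targets that have a window, with the same letters in capitals.
Bnip3: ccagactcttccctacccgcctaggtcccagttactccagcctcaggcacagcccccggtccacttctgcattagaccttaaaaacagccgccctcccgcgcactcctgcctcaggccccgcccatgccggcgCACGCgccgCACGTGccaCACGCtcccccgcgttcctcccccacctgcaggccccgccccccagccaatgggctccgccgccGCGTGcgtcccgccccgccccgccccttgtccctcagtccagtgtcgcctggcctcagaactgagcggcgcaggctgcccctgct
It held 5 core matches, 2 of them in a CACGTG, which 7.15% of all windows contain. Ddit4 held 2 and P4ha1 3. Among the 9 genes with a window, 8 held a core match and Vhl held none, where 43.8% of all windows held at least 1. The remaining gene was Bnip3l. Egln2 had a second window, and the window of Hif1a lay at a start inside the gene.

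Bnip3 (chromosome 7, 138890836 to 138909506) had 28.0 and 7.80 CPM in JAML-positive libraries A and B, against 13.7 and 15.7 CPM in JAML-negative libraries A and B. The JAML-positive replicates differed by 3.59-fold and enclosed the JAML-negative values, so the log2 fold change of 0.29 had an SE of 0.82 and a 95% interval from 0.300-fold to 4.96-fold. It was -0.91 without JAML-positive replicate A, the library with the high ribosomal protein share. Counts of Bnip3 are uncertain, because an antisense transcript, Gm45507, overlaps 22.3% of its exonic bases and 4 other transcripts, 3 of them of pseudogenes, match it over at least 200 bases at 95% identity or more.

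Bnip3l (chromosome 14, 66985238 to 67008877) had 153 and 138 CPM in JAML-positive libraries A and B, against 144 and 229 CPM in JAML-negative libraries A and B. Here JAML-negative replicate B was high and the other libraries lay together. The log2 fold change was -0.36 (SE 0.28), and 0.02 without JAML-negative replicate B. Per length, Bnip3l exceeded Bnip3 by 3.19 and 10.3 times in JAML-positive libraries A and B, and by 6.17 and 8.58 times in JAML-negative libraries A and B. The transcript Bnip3l-ps matches it over 663 bases at 99.2% identity, so reads can move between them. Bnip3l-ps had 88 and 227 counts in JAML-positive and 572 and 408 counts in JAML-negative libraries A and B.

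Ddit4 (chromosome 10, 59949675 to 59951770, minus strand) encodes REDD1, which restrains mTORC1 through the TSC complex and is induced by hypoxia, glucocorticoids and stress signalling through ATF4. It had 161 and 112 CPM in JAML-positive libraries A and B, against 205 and 153 CPM in JAML-negative libraries A and B. In each group replicate A was higher, and JAML-positive replicate A lay above JAML-negative replicate B. On the log2 scale the difference was -0.39 (SE 0.28, edgeR adjusted p = 0.897), with a 95% interval from 0.472-fold to 1.23-fold.

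P4ha1 (chromosome 10, 59323197 to 59373304, plus strand) encodes a catalytic subunit of collagen prolyl 4-hydroxylase, an enzyme of the endoplasmic reticulum that uses the same co-substrates as the EGLN enzymes but acts on collagen. It lies 576 kilobases from Ddit4. Its level was 33.7 and 55.9 CPM in JAML-positive libraries A and B, against 54.4 and 20.0 CPM in JAML-negative libraries A and B. The ranges of the groups overlapped from 33.7 to 54.4 CPM, with differences of 1.66-fold between JAML-positive and 2.71-fold between JAML-negative replicates. The log2 fold change was 0.27 (SE 0.59).

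**Figure D4:**
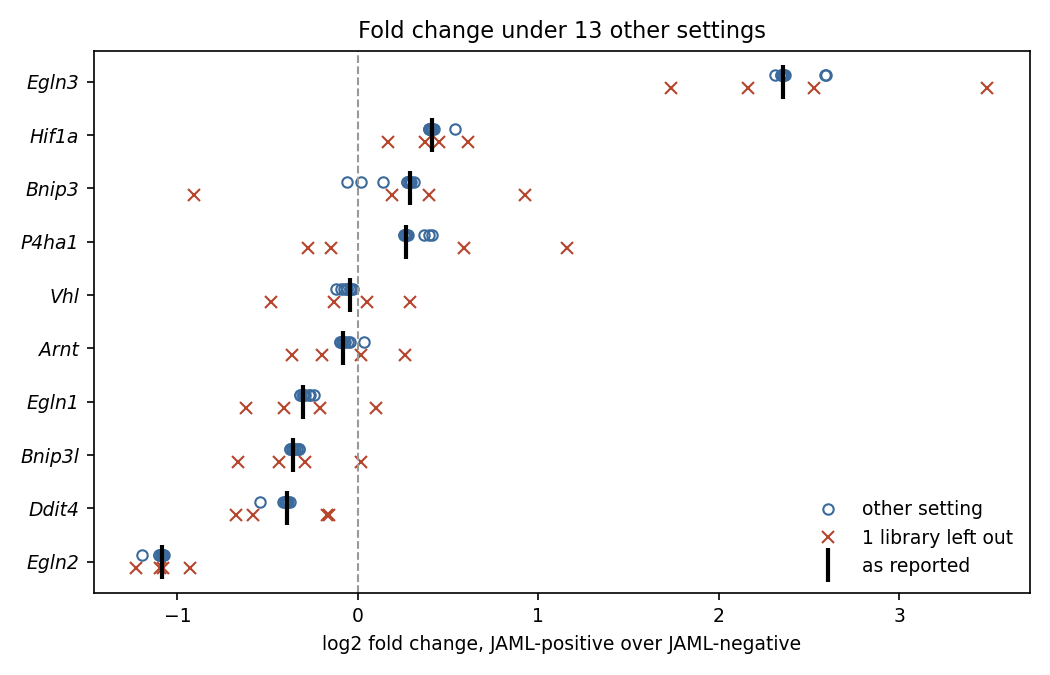
Log2 fold change of JAML-positive over JAML-negative cells for each gene as reported (bar), under 9 settings with all libraries (circles) and with 1 library left out (crosses). Hif1a, Egln2, Egln3 and Ddit4 keep their direction under all 13 settings, and the other 6 genes cross 0 under at least 1.

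The annotation in the deposited table groups the genes by function. It placed 6 of the 10, the subunits, Vhl and the 3 Egln genes, in the KEGG HIF-1 signaling pathway, which holds 97 genes of the table. It gave 7 of the 10 the term response to hypoxia, carried by 0.609% of all genes, and 3 of the 10 (Hif1a, Bnip3, Bnip3l) the KEGG mitophagy pathway. The 10 genes were chosen by name for such functions, so these shares follow from the choice. Of the 82 tested genes of the HIF-1 signaling pathway, 39 had higher and 43 lower values in JAML-positive cells, with a median log2 fold change of -0.06. With edgeR 0 passed over all genes, and those with an unadjusted p under 0.05 were 9 higher and 2 lower genes, Egln3 among them. Of all tested genes, 7.04% had such a p. DESeq2 called 8 higher genes of the pathway (Aldoa, Egln3, Eno1b, Hk2, Ldha, Pdhb, Pgk1 and Pik3r3) and 3 lower genes (Bcl2, Egln2 and Plcg1), against 7.65% of all tested genes. Aldoa, Hk2, Ldha and Pgk1 are also counted among the glycolytic targets below.

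Partners of HIF-1 and the machinery of its turnover were divided in direction. Of 16 tested genes, 6 had higher and 10 lower values (median log2 fold change -0.03), and 0 passed with edgeR or with DESeq2. Over all tested genes, 50.7% had higher values, 0% passed with edgeR and 7.65% with DESeq2. Ep300, the coactivator that HIF-1 recruits, averaged 131 ± 27.8 CPM in JAML-positive and 197 ± 39.0 CPM in JAML-negative cells (-0.59, SE 0.27). Cul2, the scaffold of the VHL ubiquitin ligase, averaged 37.2 ± 10.4 CPM in JAML-positive and 17.5 ± 6.22 CPM in JAML-negative cells (1.09, SE 0.52). Usp20, a deubiquitinase reported to act on HIF-1 alpha in human cells, had 5.33 and 24.5 CPM in JAML-positive libraries A and B, against 35.4 and 38.8 CPM in JAML-negative libraries A and B (-1.32, SE 0.77). Its uneven JAML-positive pair gave a log2 fold change of -0.60 without JAML-positive replicate A and -2.80 without JAML-positive replicate B.

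Other hypoxia targets outside glycolysis were 11 higher and 17 lower of 28 tested (median log2 fold change -0.13, but 0.07 without JAML-positive replicate A). Of these, 0 were called by edgeR or by DESeq2 and 0 had an unadjusted edgeR p under 0.05. Of all tested genes, 50.7% had higher values, 0% passed with edgeR, 7.65% were called by DESeq2 and 7.04% had such a p. The kinase gene Pim1 averaged 431 ± 20.8 CPM in JAML-positive and 555 ± 53.7 CPM in JAML-negative cells (-0.37, SE 0.18). The histone demethylase genes Kdm3a and Kdm4c were at -0.40 (SE 0.22) and -0.51 (SE 0.31) on the log2 scale.

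Glycolytic targets of HIF-1 had mostly higher values in JAML-positive cells, 16 of 20 (80.0%, against 50.7% of all tested genes), with 4 lower and a median log2 fold change of 0.38. With edgeR 0 of them passed over all genes and 7 had an unadjusted p under 0.05, all higher, while DESeq2 called 6, all higher (Aldoa, Hk2, Ldha, Pgam1, Pgk1 and Tpi1). Of all tested genes, 7.04% had such a p with edgeR and 7.65% were called by DESeq2. Hk2, which traps glucose in the cell, averaged 63.1 ± 3.70 CPM in JAML-positive and 19.6 ± 2.58 CPM in JAML-negative cells (1.69, SE 0.38, edgeR adjusted p = 0.704, DESeq2 adjusted p = 4.45e-06). Pgk1 and Ldha, enzymes of lower glycolysis and lactate formation, were at 0.73 (SE 0.19) and 0.69 (SE 0.20) on the log2 scale. The list median lay between 0.37 and 0.51 under all 13 other settings. The direction of this list was known from earlier results of these data and is given as description.

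Genes of mitophagy and autophagy were 10 higher and 8 lower of 18 tested (median log2 fold change 0.18). Fundc1, a receptor for mitophagy in hypoxia, had 26.6 and 36.5 CPM in the JAML-positive libraries, against 12.3 and 13.5 CPM in the JAML-negative libraries (1.29, SE 0.52). Map1lc3b, which encodes the autophagosome protein LC3B, averaged 85.7 ± 9.62 CPM in JAML-positive and 127 ± 4.58 CPM in JAML-negative cells (-0.57, SE 0.25). The autophagy receptor gene Calcoco1 was at a log2 fold change of -0.75 (SE 0.42). Over the 18 genes the groups did not overlap for 7, with 4 higher and 3 lower, where 20.3% of all tested genes were separated with higher and 18.2% with lower values. With edgeR 0 of the 18 passed over all genes, and DESeq2 called Fundc1 (adjusted p = 0.0329) and Map1lc3b (adjusted p = 0.0453), against 7.65% of all tested genes.

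Lists linked to Ddit4 were examined because several signals induce it. The list of glucocorticoid-induced genes, which also holds the receptor gene Nr3c1, had 2 higher and 7 lower of 9 tested (median log2 fold change -0.10). Dusp1, a MAP kinase phosphatase gene, was at -0.30 (SE 0.18) and Nr3c1 at 0.30 (SE 0.22). Errfi1, a feedback inhibitor gene of growth factor receptors, was at -0.45 (SE 0.38). Of 14 genes in the list of ATF4 targets, which also holds Atf4, 10 were higher and 4 lower (median 0.31). Slc3a2, the heavy chain of CD98 amino acid transporters, averaged 233 ± 35.8 CPM in JAML-positive and 331 ± 27.0 CPM in JAML-negative cells (-0.51, SE 0.20), Shmt2 of mitochondrial serine metabolism was at a log2 fold change of 0.50 (SE 0.29), and Atf4 itself -0.29 (SE 0.22). Of 11 genes of mTORC1 and its inputs, 4 were higher and 7 lower (median -0.12, but 0.03 without JAML-positive replicate A and -0.86 without JAML-positive replicate B). The complex subunit genes Mlst8 and Rptor were at -1.24 (SE 0.57) and -0.95 (SE 0.44), and Tsc2, through which REDD1 acts, at 0.65 (SE 0.36). With adjustment over all genes, edgeR called 0 genes of these 3 lists and DESeq2 called 1, Slc7a11 of the ATF4 targets, which had no counts in JAML-negative cells. DESeq2 called 7.65% of all tested genes.

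Enzymes that share the oxygen and 2-oxoglutarate chemistry of the EGLN family, with collagen-modifying proteins, were 4 higher and 7 lower of 11 tested (median log2 fold change -0.19). With edgeR 0 passed, and DESeq2 called 1, Kdm6b, against 7.65% of all tested genes. Kdm6b, a demethylase of histone H3 lysine 27, averaged 155 ± 10.9 CPM in JAML-positive and 259 ± 54.2 CPM in JAML-negative cells (-0.74, SE 0.23, edgeR adjusted p = 0.704, DESeq2 adjusted p = 0.0101). Its paralog Kdm6a was at a log2 fold change of 0.50 (SE 0.28), and the histone H3 lysine 4 demethylase gene Kdm5a -0.46 (SE 0.30).

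**Figure D5:**
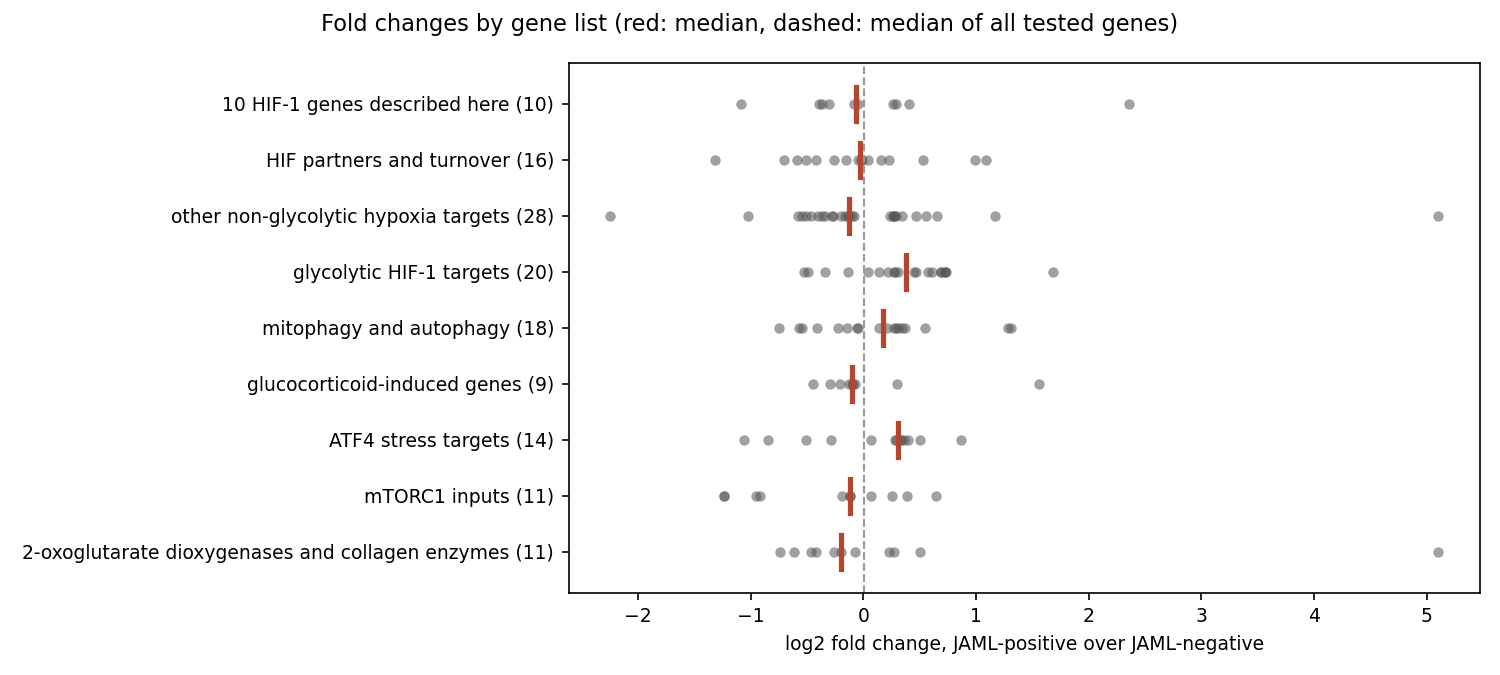
Log2 fold changes of JAML-positive over JAML-negative cells for each tested gene (points) by list, with the number of tested genes in brackets, the list median in red and the median of all tested genes (0.01) dashed. Slc7a11 of the ATF4 targets, without counts in JAML-negative cells, is left off the plot but is in the median of 0.31. The glycolytic targets have the highest median, 0.38, and the 10 genes described here lie around -0.06, with Egln3 at 2.36 and Egln2 at -1.09.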

How the data were processed

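RNA was sequenced from 4 libraries, with replicates A and B of sorted JAML-positive and of JAML-negative CD8 T cells. The authors deposited raw counts per gene symbol as whole numbers; the submitters' processing notes name GRCm38 (mm10), with aligner, counting program, strand setting and annotation not given in the sources used here. Counts were fitted with edgeR 4.0.16 (R 4.3.3): filterByExpr with a minimum count of 10, TMM factors, robust dispersions and a robust quasi-likelihood test of JAML-positive over JAML-negative without covariates. Adjustment was by Benjamini-Hochberg over all tested genes, at a threshold of 0.05. Each SE was taken from the F statistic (size of the log2 fold change over root F). The fit was tested on simulated data. Depth was 27530187 to 30569728 counts, and 3 counts in a library correspond to 0.0959 to 0.113 CPM.

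Positions came from RefSeq (14681 genes, 98.3%, matched by Entrez identifier) and exon lengths from GENCODE M21 (13758 genes, 92.1%), both GRCm38. Copies were sought with blastn 2.17.0. DESeq2 1.42.0 and limma 3.58.1 were alternatives. The 10 genes and all lists were chosen with earlier results of these data known. Beyond the 10, each list contributed the 3 genes with the smallest p among those with at least 10 CPM in the mean of a group. Columns of per-sample values left unused numbered 0.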

Additional observations from a re-analysis of the deposited data

How the results depend on the processing

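The 10 genes were refitted under 12 settings planned at the outset and 1 chosen after seeing the data (a quasi-likelihood fit without robust estimation). Of 130 such values, 119 kept their direction. With all libraries, Bnip3 turned to -0.059 with limma-voom and Arnt to 0.033 with the trend on transcript length removed; the cause was not tested. With 1 library left out, the log2 fold change ran from -0.36 to 0.26 for Arnt, -0.91 to 0.93 for Bnip3, -0.48 to 0.29 for Vhl, -0.27 to 1.16 for P4ha1, -0.62 to 0.10 for Egln1 and -0.66 to 0.016 for Bnip3l, and that of Errfi1 from -0.81 to 0.046. The median of the 10 genes ran from -0.42 (without JAML-positive replicate A) to 0.033 (without JAML-negative replicate B). Among the other lists, the median also changed sign when 1 library was left out for the HIF partners (to 0.17), other hypoxia targets (0.07), mTORC1 genes (0.034, and -0.86 without JAML-positive replicate B) and dioxygenases (0.084), and kept it for the glycolytic, mitophagy, glucocorticoid and ATF4 lists.

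DESeq2 called 885 genes (7.65% of all tested), 2 of the 10 genes and 10 genes of the other lists, where edgeR called 0 of each. Those of the other lists were 6 of 20 glycolytic targets, Fundc1 and Map1lc3b of 18 mitophagy genes, Slc7a11 of 14 ATF4 targets and Kdm6b of 11 dioxygenases. Of 16 HIF partners, 28 other hypoxia targets, 9 glucocorticoid-induced genes and 11 mTORC1 genes, DESeq2 called 0. At an unadjusted p under 0.05 DESeq2 had 2054 genes and 3 of the 10, against 814 and 1 with edgeR, and limma-voom had 2 of the 10. Without a filter 2 genes passed. With 1 library left out, 0 to 19 genes passed (19 without JAML-negative replicate B), 379 to 915 had an unadjusted p under 0.05 (379 without JAML-positive replicate A), and 0 to 1 of the 10 did (0 without JAML-positive replicate B). With the replicate letter as a block, in a paired fit, 0 genes passed and 496 had an unadjusted p under 0.05. The letters share no stated origin, and the A minus B differences of the groups had a correlation of 0.01 across genes. The block changed no call. These fits have 1 residual degree of freedom, and with a group at 1 library that library is assumed to vary like the others. The smallest count of any of the 10 genes in a library was 85, with a Poisson 95% interval of 67.9 to 105.1 counts.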

Other observations

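Some genes of the oxygen-sensing system fell outside the naming rule and were chosen after their values were seen. Epas1, which encodes HIF-2 alpha, had 461 and 727 counts in JAML-positive libraries A and B, against 415 and 159 counts in JAML-negative libraries A and B (log2 fold change 0.99, SE 0.79). Hif1an, which encodes the asparaginyl hydroxylase FIH that blunts HIF transactivation, had 470 and 919 counts in JAML-positive libraries A and B, against 1083 and 1061 counts in JAML-negative libraries A and B (-0.70, SE 0.46). Vegfa, the classic secreted hypoxia target, had 247 and 334 counts in JAML-positive libraries A and B, against 376 and 267 counts in JAML-negative libraries A and B (-0.20, SE 0.98). Slc2a1, the glucose transporter gene induced by HIF-1, averaged 73.7 ± 7.83 CPM in JAML-positive and 93.1 ± 6.16 CPM in JAML-negative cells (-0.34, SE 0.27), among the 4 of 20 glycolytic targets with a lower value. None of these 4 genes passed edgeR's test over all genes, which 0% of all tested genes passed.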
